A study of Mus musculus with 15 samples.

Results

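The Notch genes described here are the 4 receptors Notch1, Notch2, Notch3 and Notch4, the 5 ligands Dll1, Dll3, Dll4, Jag1 and Jag2, and the target gene Hes1. They were taken by gene symbol from the deposited tables, which hold 36144 genes, and all 10 were found in both tables. All 10 also passed the filter on low counts that left 16224 genes for testing. The samples were bulk RNA-seq libraries of mouse stomach, 15 in number. Tumors came from 4 sites, with 3 libraries each from the antrum, the boundary of the greater curvature of the cardia, the boundary of the lesser curvature of the cardia and the corpus, and 3 libraries came from normal tissue. The labels give tumors and normals alike the C57BL/6 strain, the same genotype, an age of 7 to 8 weeks, and tissue taken 5 weeks after tamoxifen. That genotype joins Pou2f3-CreERT, floxed Rb1 (Rb1fl/fl), floxed Trp53 (Trp53fl/fl) and the Cre-activated Myc allele LSL-MycT58A. Tamoxifen was injected at 50 mg/kg. The Pou2f3 promoter drives the tamoxifen-dependent Cre, and Pou2f3 is a transcription factor of tuft cells, a rare chemosensory epithelial cell type. The region of stomach from which the normal tissue was cut is not given in the labels. Libraries of a group are labelled as biological replicates without saying whether each came from its own mouse, so p-values measure the spread between these libraries, part of which may be technical.

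Notch signaling passes between touching cells. A DSL ligand on one cell (the Delta-like and Jagged proteins) binds a Notch receptor on its neighbor, the receptor is cut by an ADAM protease and then by gamma-secretase, and the released intracellular domain joins RBPJ and a Mastermind coactivator to switch on target genes. Hes1 is the best known of these targets and encodes a repressor of proneural genes, and in the gastrointestinal tract Notch activity is known for holding epithelial progenitors back from secretory and endocrine fates.

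Promoter sequence was looked up for the 10 genes in RefSeq (GRCm38.p6), where 9 matched, with 10 promoter windows between them, and Hes1 did not match. A pair is shown here because these receptors lie on the same chromosome and had fold changes of opposite sign in lesser curvature tumors. The pair was picked with those values known, and the Notch3 value there was not called (log2 fold change 0.85, edgeR adjusted p = 0.185). A link between motifs and fold changes was not tested. Notch4 is the only receptor that passed edgeR's test at any site. Neither run overlaps an annotated exon, which cut the Notch4 run to 223 bases and left the Notch3 window whole at 250 bases. Each run is read 5′ to 3′ on the gene's own strand. Capitals mark the N-box CACNAG on either strand, a sequence that HES proteins bind. The Notch4 run covers chr17:34564045-34564267 on the plus strand and holds 0 N-boxes. The Notch3 run covers chr17:32166891-32167140 on the minus strand and holds 2.
Notch4: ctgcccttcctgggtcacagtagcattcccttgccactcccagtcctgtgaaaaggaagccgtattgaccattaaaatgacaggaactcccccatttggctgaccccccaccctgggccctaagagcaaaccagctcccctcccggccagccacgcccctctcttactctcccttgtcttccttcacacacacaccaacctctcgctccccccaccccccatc
Notch3: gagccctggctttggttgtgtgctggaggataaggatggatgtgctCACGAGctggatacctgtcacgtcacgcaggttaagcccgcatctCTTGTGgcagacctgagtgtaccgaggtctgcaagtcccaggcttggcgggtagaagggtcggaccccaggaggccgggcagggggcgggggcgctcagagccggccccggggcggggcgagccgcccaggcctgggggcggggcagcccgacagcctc
Over the 250 bases before each start site, 4 of the 10 windows of these genes (those of Notch1, Notch2, Notch3 and Dll4) held an N-box, against 36.7% of 32851 promoters. The RBPJ core TGGGAA was in 0 of the 10 windows, against 21.6% of all promoters, and the E-box CACGTG in 0 of the 10, against 6.0%. Both strands were searched, and the 3 motifs have no overlapping match in the printed runs.

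Library totals ran from 7957165 to 21564972 counts, so that 1 count stood for 0.0478 to 0.112 CPM (counts per 1e+06 of the TMM-scaled library). On the first principal component, which held 46.9% of the variance, greater curvature 2 and corpus 1 lay among the 3 normals. Some, not all, of the results that rest on these 2 libraries are also given without them. The 2 libraries were chosen for lying there, so leaving them out widens the distance between tumors and normals by construction. Without them 7253 genes were called over all tumors in place of 5176. Of the engineered genes, Myc rose in the tumors (95.2 to 765 CPM, against 39.1 to 98.4 CPM in normals, log2 fold change 2.13, edgeR adjusted p = 0.0158). Rb1 (23.3 to 47.2 CPM in tumors, 36.1 to 49.5 CPM in normals, adjusted p = 0.372) and Trp53 (24.0 to 70.5 CPM in tumors, 28.1 to 32.4 CPM in normals, adjusted p = 0.377) did not pass, and gene totals cannot show whether floxed exons were lost. Summed markers of stomach epithelium, which include the mucus genes Gkn1 and Tff1 and the pepsinogen gene Pgc, ran from 148 to 174186 CPM in tumors and from 164843 to 237619 CPM in normals, with none of the 10 markers at 0 in any library. Smooth muscle markers were called lower in tumors for 10 of 10 genes, beside 15.7% of all tested genes (summed 194 to 1194 CPM in tumors, 4633 to 6519 CPM in normals). In bulk tissue, fewer cells of a type and less RNA per cell cannot be told apart.

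Across all 12 tumors set against the 3 normals, Jag2 was the only 1 of the 10 Notch genes that passed edgeR's test, as a rise. Not passing does not show that the other genes were unchanged. This 1 of 10 stands beside 31.9% of all tested genes called in that comparison, 16.2% higher and 15.7% lower. A gene was called at a Benjamini-Hochberg adjusted p under 0.05 over all 16224 genes in edgeR's quasi-likelihood test, and the pooled contrast was the mean of the 4 sites minus normal. The median log2 fold change of the 10 genes was 0.12, against -0.04 for all tested genes. None of the 10 had all 12 tumors beyond all 3 normals on one side, a pattern seen on the higher side for 9.58% and on the lower side for 6.65% of tested genes. For counts short of all 12 tumors the share of tested genes was not taken, so such counts below stand without one. By site, 0 of 10 passed in antrum tumors (14.7% of all genes), 0 of 10 in greater curvature tumors (9.26%), 2 of 10, 1 higher and 1 lower, in lesser curvature tumors (33.6%, with 18.2% higher and 15.3% lower) and 0 of 10 in corpus tumors (3.54%). At an unadjusted p under 0.05, edgeR had 1 of the 10 in antrum tumors, 3 in greater curvature tumors and 1 in corpus tumors. The share of all genes at that threshold was not taken. DESeq2 at an adjusted p under 0.05 called 1, 2 and 0 of the 10 at those sites. Of 16224 genes it called 2660 higher and 1822 lower in antrum tumors, 2447 and 1404 in greater curvature tumors and 1315 and 920 in corpus tumors.

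**Figure D1:**
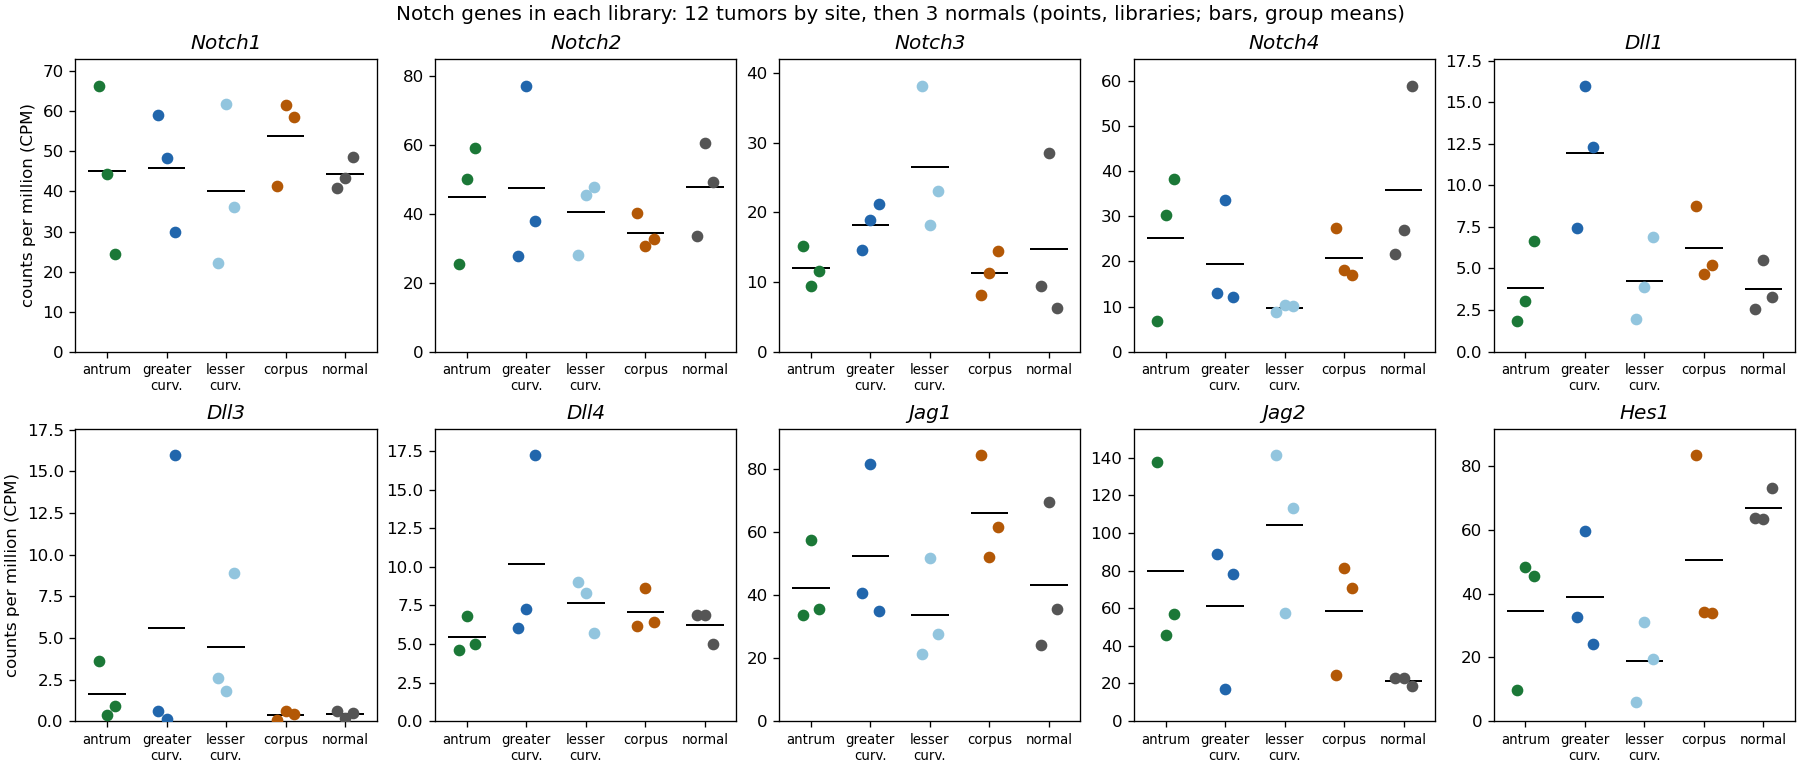
Level in CPM (vertical axes from 0) of each of the 10 Notch genes in every library, with the 4 tumor sites from left to right and the normals last. Points are libraries and bars are group means. In the Jag2 panel 11 of 12 tumors lie above the 3 normals, and in the Hes1 panel 11 of 12 lie below them. The share of all tested genes with such counts was not taken.

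Among the receptors, Notch1 and Notch2 overlapped the normals, Notch3 had the widest ratio between normals (4.61-fold), and Notch4 was the only one to pass edgeR's test, at a single site. Notch1 (chr2:26457903-26516663, minus strand), a receptor used widely in epithelium and endothelium, ran from 22.1 to 66.4 CPM over the 12 tumors with a median of 46.4 CPM, against 41.0, 43.4 and 48.7 CPM in the normals. Its tumors lay on both sides of the normals, 5 above and 4 below. Its pooled log2 fold change was 0.05 (SE 0.32, edgeR adjusted p = 0.914). Notch2 (chr3:98013527-98150361, plus strand), a receptor with broad expression, ran from 25.4 to 77.3 CPM in tumors with a median of 39.1 CPM, against 33.5, 60.6 and 49.2 CPM in the normals. The groups overlapped, and its pooled log2 fold change was -0.20 (SE 0.31, adjusted p = 0.629). At single sites the log2 fold changes of Notch1 ran from -0.15 to 0.28 and those of Notch2 from -0.47 to -0.0032, with no call in any of them by edgeR.

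Notch3 (chr17:32120820-32166852, minus strand) is known as the receptor of vascular smooth muscle and pericytes. It was 15.1, 9.44 and 11.6 CPM in antrum tumors and 14.6, 18.9 and 21.2 CPM in greater curvature tumors. In lesser curvature tumors it was 38.2, 18.1 and 23.1 CPM, in corpus tumors 8.06, 11.3 and 14.5 CPM, and in normals 9.40, 28.5 and 6.19 CPM. Normal 2 was the second highest of the 15 libraries and the other normals were among the lowest, so tumors and normals overlapped. Over all tumors its log2 fold change was 0.12 (SE 0.39, edgeR adjusted p = 0.820), and in lesser curvature tumors it was 0.85 (SE 0.49, adjusted p = 0.185). The lesser curvature value depended on single libraries, at 1.76 without normal 2 (adjusted p = 0.0167), 0.48 without normal 3 (adjusted p = 0.448) and 0.49 without lesser curvature 1 (adjusted p = 0.509). On the log2(TPM + 1) scale with limma it was 1.33 with an adjusted p of 0.0119. At this site the median gene rose by 0.63 on that scale, and 90.5% of limma's calls were higher. Normal 2 also stood apart from the other normals in squamous epithelium markers such as Krt5 and Krt13. Their sum was 6271 CPM in normal 2, against 13.3 and 6.58 CPM in normals 1 and 3. It was 406, 2023 and 1059 CPM in lesser curvature tumors and 12.8 to 166 CPM in the other tumors. Pericyte markers summed to 489, 199.7 and 228 CPM in lesser curvature tumors, against 315, 428 and 543 CPM in normals. Of the 7 pericyte markers 1 was called at that site, as higher, beside 18.2% of all tested genes called higher there. It was Pdgfrb, a receptor of pericytes and fibroblasts, at 54.0 to 72.6 CPM in lesser curvature tumors and 13.9 to 24.0 CPM in normals (log2 fold change 1.60, edgeR adjusted p = 0.00600). The median log2 fold change of the 7 markers there was -0.55, and over all tumors 1 was called higher and 3 lower. The part of these cells in the Notch3 values was not tested.

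Notch4 (chr17:34564268-34588503, plus strand), a receptor known mainly from endothelium, was lowest at the lesser curvature. It was 8.80, 10.3 and 10.1 CPM in lesser curvature tumors, against 21.7, 27.0 and 58.9 CPM in normals. All 3 tumors of that site lay below all 3 normals, as they did for 27.3% of tested genes. There Notch4 fell, with a log2 fold change of -1.88 (SE 0.60) and an edgeR adjusted p of 0.0332. It was 6.88, 30.2 and 38.2 CPM in antrum tumors, 12.9, 33.6 and 12.05 CPM in greater curvature tumors and 27.4, 18.1 and 16.9 CPM in corpus tumors. These sites overlapped the normals, with log2 fold changes of -0.52, -0.88 and -0.79 and no call. Over all tumors the value was -1.02 (SE 0.43, adjusted p = 0.0858), with 8 of 12 tumors below all normals. It passed without greater curvature 2 and corpus 1 (-1.24, adjusted p = 0.0321) and without greater curvature 2 alone (-1.18, adjusted p = 0.0342). It was -0.46 without normal 3 (adjusted p = 0.517) and -0.19 on the log2(TPM + 1) scale (limma adjusted p = 0.690), where the median gene rose by 0.43. In lesser curvature tumors the call did not hold without normal 3 (-1.32, adjusted p = 0.132) or without any single lesser curvature library (adjusted p 0.0590 to 0.104). On the log2(TPM + 1) scale the value at this site was -0.79 with a limma adjusted p of 0.163, where the median gene rose by 0.63. Endothelial markers summed to 172, 176 and 99.5 CPM in lesser curvature tumors, against 365, 176 and 283 CPM in normals. Over all tumors that sum ran from 99.5 to 316 CPM, and 2 of 11 markers, Pecam1 and Vwf, were called lower with none at 0. That stands beside 15.7% of all tested genes called lower. The part of endothelium in the Notch4 values was not tested.

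Among the ligands, Jag2 rose in edgeR's test in the tumors as a whole and at the lesser curvature. Dll1, Dll4 and Jag1 did not pass that test at any site, though DESeq2 and limma called Dll1 at the greater curvature, and Dll3 was high in a few libraries. Jag2 (chr12:112907819-112929776, minus strand) encodes Jagged 2, a ligand that activates Notch on neighboring cells. It was 138, 45.6 and 56.7 CPM in antrum tumors, 88.9, 17.0 and 78.1 CPM in greater curvature tumors, 141, 57.4 and 113 CPM in lesser curvature tumors and 24.3, 81.3 and 70.6 CPM in corpus tumors. In normals it was 23.0, 23.0 and 18.7 CPM. Lesser curvature 1 and antrum 1 were the highest of all libraries, greater curvature 2 was the lowest, corpus 1 was just above the normals, and the remaining tumors all exceeded the normals by more than the normals' own range. Averages were 76.0 ± 39.9 CPM in tumors (SD, n = 12) and 21.6 ± 2.52 CPM in normals (SD, n = 3). The pooled log2 fold change was 1.78 (SE 0.56, edgeR adjusted p = 0.0311), a 3.43-fold difference, and 11 of 12 tumors exceeded every normal.

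By site, Jag2 had its highest value at the lesser curvature, with a log2 fold change of 2.27 (SE 0.65, edgeR adjusted p = 0.0223). All 3 tumors there lay above all normals, as they did for 27.4% of tested genes. In antrum tumors, which all lay above the normals (as for 21.9% of tested genes), it was 1.89 (SE 0.64, adjusted p = 0.0647). It was 1.51 in greater curvature tumors (SE 0.63, adjusted p = 0.128) and 1.45 in corpus tumors (SE 0.63, adjusted p = 0.188), where again all 3 lay above the normals (as for 17.6%). These 3 did not pass, and the test among the 4 sites gave Jag2 an adjusted p of 0.901, so no difference between sites was shown. Without greater curvature 2 and corpus 1, a choice that itself widens differences from normal, all 4 sites passed, at 1.89 in antrum tumors (adjusted p = 0.0132), 1.96 in greater curvature tumors (adjusted p = 0.0145) and 1.82 in corpus tumors (adjusted p = 0.0312), the lesser curvature among them. The pooled call did not hold without normal 1 (1.83, adjusted p = 0.0837), normal 2 (1.83, adjusted p = 0.0919) or normal 3 (1.69, adjusted p = 0.112). Pooled calls over all genes were 3102, 2890 and 2587 without normals 1, 2 and 3 in turn, against 5176 with every library. The lesser curvature call of Jag2 did not hold without any single normal or without lesser curvature 1 or 3 (1.99 to 2.32, adjusted p 0.0548 to 0.0766).

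Jag1 (chr2:137081456-137116644, minus strand) encodes the other Jagged ligand. It ran from 21.4 to 84.3 CPM in tumors with a median of 46.1 CPM, against 24.2, 69.4 and 35.6 CPM in normals. Normal 2 was again the highest normal, and only 2 tumors lay above it and 1 below all normals. The pooled log2 fold change was 0.13 (SE 0.37, edgeR adjusted p = 0.803), and at single sites it ran from -0.36 at the lesser curvature to 0.62 in the corpus, with no call.

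Dll1 (chr17:15367354-15376872, minus strand), a Delta-like ligand that activates Notch on neighboring cells, was highest at the greater curvature. It was 7.46, 16.0 and 12.3 CPM in greater curvature tumors, against 2.57, 5.50 and 3.29 CPM in normals. All 3 tumors of this site lay above all normals, as for 15.2% of tested genes. The log2 fold change there was 1.66 (SE 0.57, edgeR adjusted p = 0.0799). DESeq2 gave 1.66 with an adjusted p of 0.0237, and limma on log2(TPM + 1) gave 1.63 with an adjusted p of 0.0248. At this site the median gene rose by 0.41 on the log2(TPM + 1) scale, and 92.9% of limma's calls were higher. Dll1 was 1.84, 3.03 and 6.66 CPM in antrum tumors, 1.97, 3.92 and 6.88 CPM in lesser curvature tumors and 8.78, 4.66 and 5.19 CPM in corpus tumors, all sites that overlapped the normals. Over all tumors its log2 fold change was 0.64 (SE 0.47, adjusted p = 0.287). In edgeR's test among the 4 sites its unadjusted p was 0.0408 and its adjusted p was 0.827.

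Dll3 (chr7:28293553-28302238, minus strand) is a divergent ligand that does not activate Notch on neighboring cells and is known to be highly expressed in human small cell lung cancer. It had few reads in most libraries, so counts are given. It had 59, 6 and 16 counts in antrum tumors, 9, 3 and 305 counts in greater curvature tumors, 53, 16 and 186 counts in lesser curvature tumors, 1, 11 and 8 counts in corpus tumors and 8, 2 and 6 counts in normals. Greater curvature 3 and lesser curvature 3 stood highest, at 16.0 and 8.88 CPM, followed by antrum 1 at 3.63 CPM and lesser curvature 1 at 2.60 CPM, against 0.174 to 0.588 CPM in normals. The corpus tumors overlapped the normals, and so did the pooled tumors, of which 8 of 12 lay above all normals. The pooled log2 fold change was 2.26 (SE 1.30, edgeR adjusted p = 0.187). At the greater curvature it was 3.74 (SE 1.51, adjusted p = 0.116), which was -0.11 (adjusted p = 0.970) without greater curvature 3, and at the lesser curvature it was 3.41 (SE 1.497, adjusted p = 0.0925). DESeq2 called both, with adjusted p of 0.0243 and 0.0242.

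Dll4 (chr2:119325784-119335962, plus strand), a ligand known for its role in sprouting vessels, ran from 4.61 to 17.2 CPM in tumors with a median of 6.63 CPM, against 6.91, 6.89 and 4.97 CPM in normals. Greater curvature 3 was the highest library, 5 of 12 tumors lay above all normals and 1 below, and the rest overlapped. Its pooled log2 fold change was 0.25 (SE 0.31, edgeR adjusted p = 0.546), and its largest value at a site was 0.70 at the greater curvature (SE 0.39, adjusted p = 0.224).

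Hes1 (chr16:30064384-30067796, plus strand), the repressor that Notch induces, did not pass edgeR's pooled test. Hes1 lay below every normal in 11 of 12 tumors, a count whose share over all tested genes was not taken. It was 9.90, 48.2 and 45.6 CPM in antrum tumors, 32.7, 59.6 and 24.1 CPM in greater curvature tumors, 6.04, 31.0 and 19.6 CPM in lesser curvature tumors and 83.4, 34.2 and 33.95 CPM in corpus tumors. In normals it was 63.6, 63.5 and 73.2 CPM. Lesser curvature 1 and antrum 1 were the lowest libraries, and corpus 1 was the highest of all. Averages were 35.7 ± 21.5 CPM in tumors (SD, n = 12) and 66.8 ± 5.59 CPM in normals (SD, n = 3). The pooled log2 fold change was -0.99 (SE 0.48, edgeR adjusted p = 0.122), and without greater curvature 2 and corpus 1 it was -1.24 with an adjusted p of 0.0483. On the log2(TPM + 1) scale, where the median gene rose by 0.43, it was -0.61 with a limma adjusted p of 0.307. At the lesser curvature it was -1.83 (SE 0.66, adjusted p = 0.0511). Of 24 alternatives there 7 called it, DESeq2 among them (adjusted p = 0.0156), with values from -2.38 to -1.29 over all 24. It was -0.95 in antrum tumors, -0.78 in greater curvature tumors and -0.40 in corpus tumors, with adjusted p of 0.307, 0.400 and 0.733. All 3 tumors lay below all normals in the antrum, greater curvature and lesser curvature groups, as for 18.8%, 14.7% and 27.3% of tested genes.

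**Figure D2:**
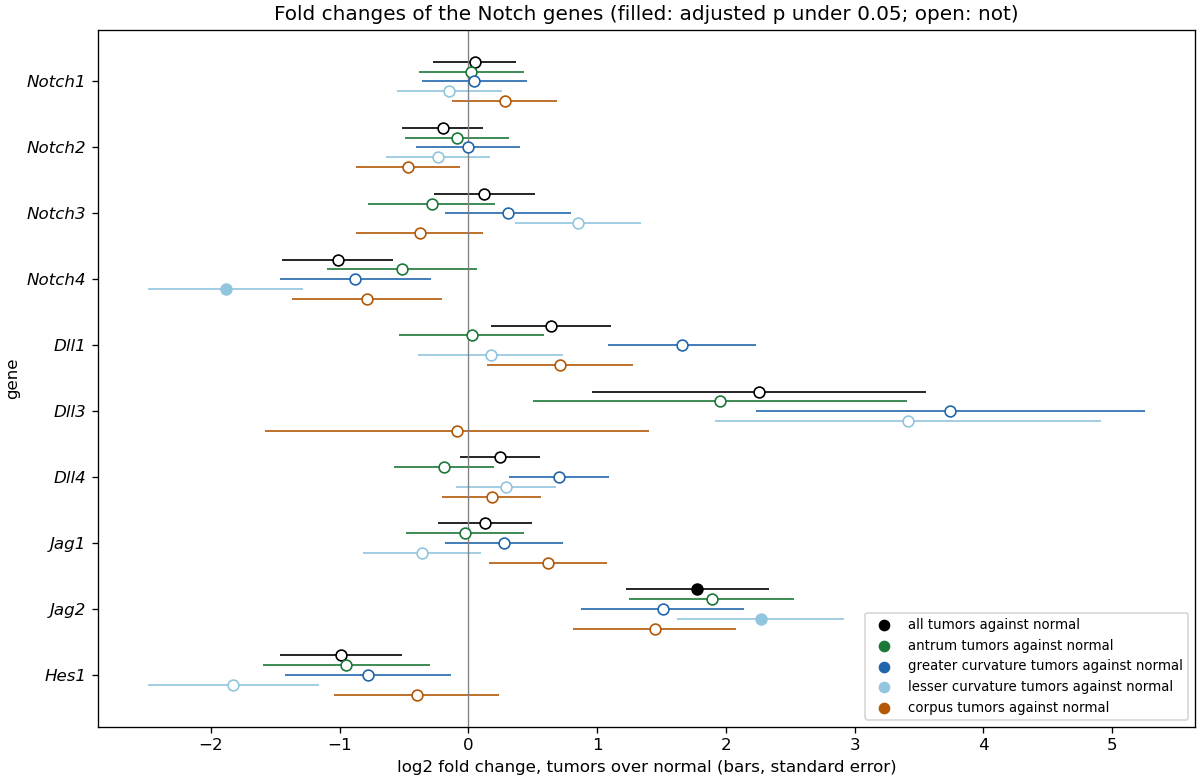
Log2 fold change (horizontal axis, tumors over normal, bars are standard errors) of the 10 Notch genes, for all tumors and for each site set against normal. Filled points passed an adjusted p under 0.05 in edgeR, which were Jag2 over all tumors (1.78) and at the lesser curvature (2.27) and Notch4 at the lesser curvature (-1.88).

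Hes1 and Jag2 lay at opposite ends in some libraries. Lesser curvature 1 and antrum 1 had the highest Jag2 and the lowest Hes1. The 5 libraries with the lowest Jag2 (greater curvature 2, corpus 1 and the 3 normals) were also the 5 with the highest Hes1. The same 5 libraries had the highest sums of stomach epithelium markers, at 110068 CPM in greater curvature 2, 174186 CPM in corpus 1 and 164843 to 237619 CPM in normals. Lesser curvature 1 and antrum 1 had the lowest sums, at 148 and 1385 CPM. The part of the tissue's makeup in the Hes1 and Jag2 values was not tested.

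**Figure D3:**
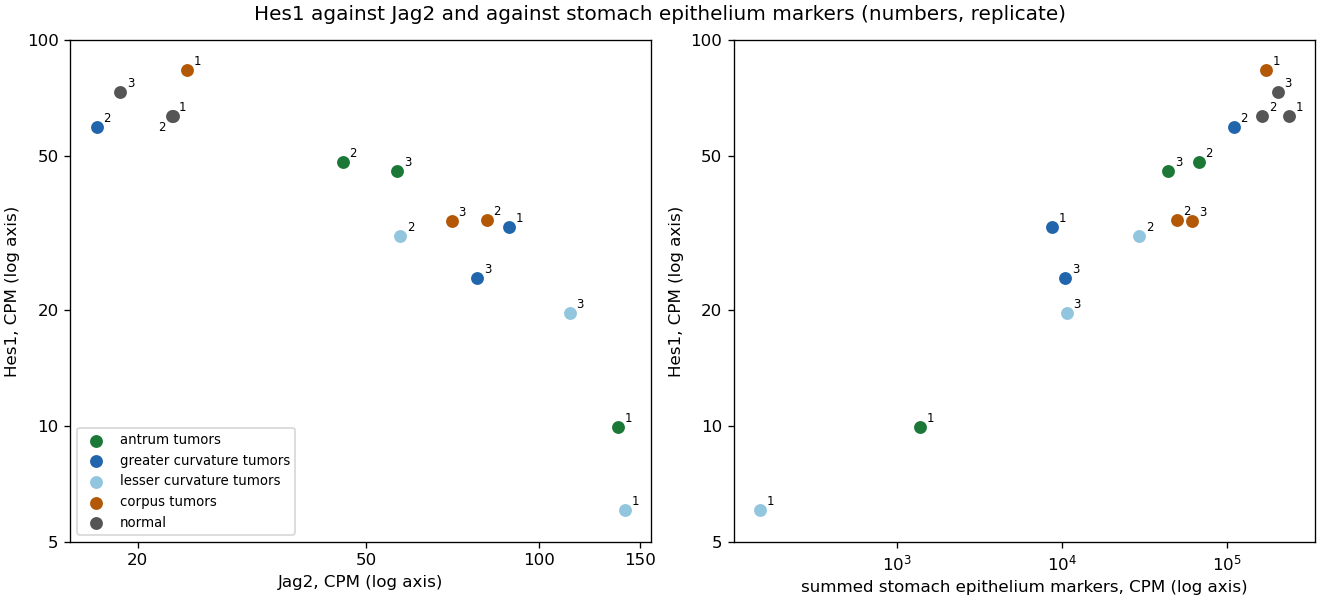
Hes1 in CPM (vertical log axes) plotted for each library against Jag2 in CPM (left, log axis) and against the summed CPM of stomach epithelium markers (right, log axis), with the replicate number beside each point. Lesser curvature 1 and antrum 1 sit lowest for Hes1 in both panels, at 6.04 and 9.90 CPM.

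To compare levels between genes, the deposited TPM values were used, which are scaled for transcript length. In tumors the order of mean TPM was Hes1 (44.7 ± 21.2), Jag2 (43.0 ± 26.1), Jag1 (14.2 ± 4.54), Notch1 (10.4 ± 4.21), Notch4 (6.45 ± 3.45), Notch2 (5.69 ± 1.90), Dll1 (4.002 ± 2.75), Notch3 (3.40 ± 1.87), Dll4 (3.11 ± 1.68) and Dll3 (2.56 ± 3.93), with SD over 12 libraries. Every neighboring pair in this order overlapped in the tumors. Hes1 exceeded Jag2 in 8 of 12 tumors, and Jag2 exceeded Jag1 in 10 of 12. In normals the order was Hes1 (59.98 ± 2.77), Jag1 (8.65 ± 4.62), Notch1 (8.07 ± 3.29), Jag2 (7.60 ± 0.785), Notch4 (6.95 ± 2.37), Notch2 (4.44 ± 1.33), Notch3 (1.91 ± 1.58), Dll4 (1.85 ± 0.537), Dll1 (1.58 ± 0.785) and Dll3 (0.226 ± 0.184), with SD over 3 libraries. Among the normals only Hes1 stood clear above the next gene and Dll3 clear below it, with no overlap, and the other neighbors overlapped.

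Jag2 made up 19.5% to 86.0% of the summed TPM of the 5 ligands in tumors, with a median of 62.2%, against 31.6%, 40.2% and 46.8% in normals from lowest to highest. Jag1 made up 6.71% to 52.5% in tumors with a median of 24.0%, against 30.1% to 52.0% in normals. The summed ligand TPM was 38.3 to 117 in tumors and 16.2 to 26.5 in normals, ranges that did not overlap on this scale. Summed as CPM the ligands did overlap, with antrum 3 just below normal 2. The summed receptor TPM was 19.5 to 34.6 in tumors and 15.7 to 26.9 in normals, which overlapped. On the TPM scale the median gene was 0.43 higher in tumors (log2(TPM + 1)), so these sums carry a shift that the CPM values do not. Notch1 was 39.2% of the receptor sum at the tumor median (15.6% to 58.7%) and 36.3% at the normal median (31.1% to 44.0%). Notch3 made up 39.2% of it in lesser curvature 1, its highest share in any tumor, against at most 17.3% in normals.

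**Figure D4:**
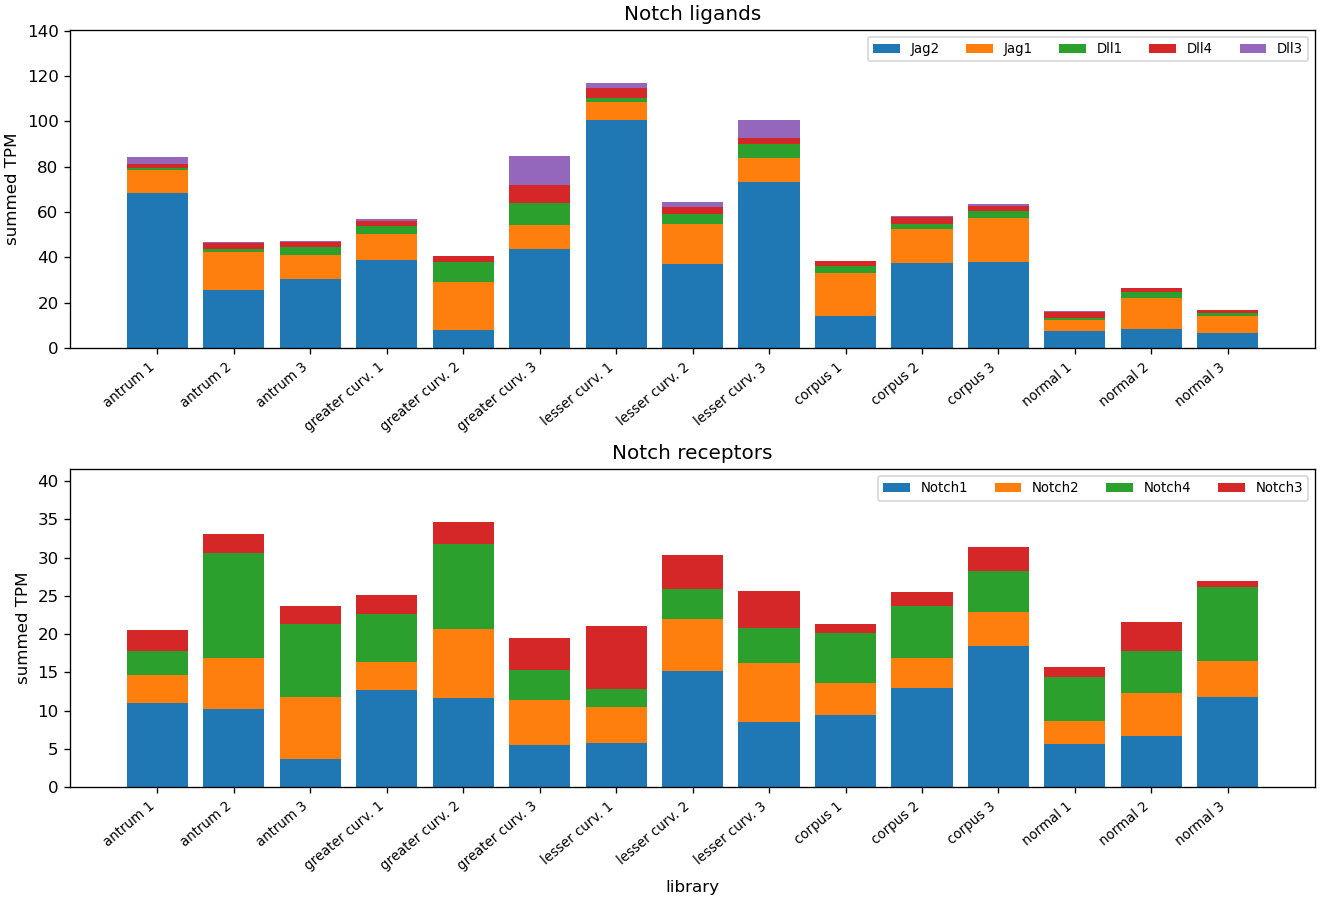
Summed TPM (vertical axes from 0) of the 5 Notch ligands (top) and the 4 receptors (bottom) in each library, stacked by gene, with the 12 tumors from the left and the 3 normals last. Ligand sums run from 38.3 to 117 TPM in tumors and from 16.2 to 26.5 TPM in normals, and Jag2 is the largest block in most tumors. On the TPM scale the median gene was 0.43 higher in tumors (log2(TPM + 1)), and ligand sums in CPM overlapped.

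Other genes of the pathway were read from lists of its known parts. Where a pooled call below was lost without normal 1, 2 or 3, calls over all genes also fell, from 5176 to 3102, 2890 and 2587 in that order. Of 10 other target genes, 8 were tested and 1, Heyl, was called in all tumors against normal, as a rise, beside 16.2% of all tested genes called higher. Heyl is a HES-related repressor known from smooth muscle and pericytes. It ran from 5.07 to 14.1 CPM in tumors with 11 of 12 above all normals, which had 5.44, 1.13 and 3.82 CPM. Its log2 fold change was 1.74 (SE 0.43, edgeR adjusted p = 0.0123), and it also passed at the greater curvature (1.99, adjusted p = 0.0340) and the lesser curvature (1.92, adjusted p = 0.0156). Hes5, another classical Notch target, was at 0 to 1.36 CPM in tumors and 0 to 0.147 CPM in normals with an adjusted p of 0.0550, and Dtx1, a ubiquitin ligase gene that Notch induces, had a log2 fold change of 1.58 with an adjusted p of 0.151. Values below 0 were those of Hey2 (-0.76, with 10 of 12 tumors below all normals), Nrarp (-0.56) and Hes7 (-0.37), with adjusted p of 0.231, 0.269 and 0.429, named after their values were seen. The median of the 8 tested targets was 0.94, against -0.04 for all tested genes.

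In the nuclear complex, Rbpj, which encodes the DNA-binding protein of the pathway, rose in the pooled comparison. It was 60.6 to 93.7 CPM in tumors, against 54.7, 51.4 and 50.6 CPM in normals. All 12 tumors lay above the normals, with a log2 fold change of 0.57 (SE 0.15, edgeR adjusted p = 0.0134). The call did not hold without normal 2 (adjusted p = 0.0534) or normal 3 (adjusted p = 0.0615). The Mastermind coactivator gene Maml3 was at a log2 fold change of -0.40 with an adjusted p of 0.0967.

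Of 10 genes for the cutting of the receptor, 5 fell and none rose, beside 15.7% of all tested genes called lower, and the median log2 fold change was -0.48. Furin, the protease that first cleaves the receptor on its way to the surface, fell, with a log2 fold change of -2.24 (SE 0.49) and an edgeR adjusted p of 0.00765. It ran from 44.8 to 537 CPM in tumors, against 1031, 374 and 711 CPM in normals, with corpus 1 and greater curvature 2 the only tumors within the normal range. The other 4 encode parts of gamma-secretase. Psenen fell by 0.48 on that scale (SE 0.11, adjusted p = 0.00852) and Psen2 by 1.34 (SE 0.32, adjusted p = 0.0101), both with 12 of 12 tumors below all normals. Aph1c fell by 1.33 (adjusted p = 0.0139) and Aph1a by 0.53 (adjusted p = 0.0161), each with 11 of 12 below, and this pair is named after its values were seen. On the log2(TPM + 1) scale, where the median gene rose by 0.43, Psenen and Aph1a were not lower (0.10 and 0.17, limma adjusted p = 0.582 and 0.342). Psen2 and Aph1c lost their calls without normal 1 (adjusted p = 0.0691 and 0.0792) and Aph1a without normal 3 (adjusted p = 0.0912). The summed level of the 10 genes was highest among tumors in corpus 1 and greater curvature 2 (1448 and 1301 CPM) and lowest in antrum 1 and lesser curvature 1 (478 and 437 CPM), against 1233 to 1739 CPM in normals. The same pairs of tumors had the highest and the lowest sums of stomach epithelium markers (174186 and 110068 CPM, 1385 and 148 CPM), and the part of epithelium in the proteolysis values was not tested.

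Of the 5 enzyme genes that add or extend sugars on Notch, 3 rose and none fell, beside 16.2% of all tested genes called higher, and the median log2 fold change was 1.11. Poglut1, which adds glucose to the receptor's EGF repeats, was 29.9 to 69.5 CPM in tumors, against 27.3, 18.1 and 22.6 CPM in normals. All 12 tumors lay above the normals, and the log2 fold change was 1.19 (SE 0.27, edgeR adjusted p = 0.00919). Mfng and Rfng are Fringe genes, whose enzymes extend O-fucose and shift the receptor's response between ligands. Mfng was 4.84 to 71.4 CPM in tumors, against 9.04, 2.09 and 2.68 CPM in normals, with a log2 fold change of 2.97 (SE 0.89, adjusted p = 0.0257) that lost its call without normal 2 or normal 3 (adjusted p = 0.101 and 0.103). Rfng had a log2 fold change of 0.70 (SE 0.24, adjusted p = 0.0409) and 12 of 12 tumors over the highest normal, and it lost its call without normal 1, 2 or 3 (adjusted p = 0.0980, 0.148 and 0.0947) and without greater curvature 1, lesser curvature 1, corpus 2, greater curvature 3, lesser curvature 3 or corpus 3 (adjusted p 0.0587 to 0.0625).

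Of 13 genes for ubiquitin transfer and trafficking, 1 fell and none rose over all tumors, beside 15.7% of all tested genes called lower. Itch, a ubiquitin ligase that acts on Notch, was 48.8 to 111 CPM in tumors, against 138, 135 and 132 CPM in normals. All 12 tumors lay below the normals, with a log2 fold change of -0.83 (SE 0.20, edgeR adjusted p = 0.0101). On the log2(TPM + 1) scale, where the median gene rose by 0.43, the value was -0.26 with a limma adjusted p of 0.241. Neurl1a, related to the Drosophila gene neuralized, which acts on ligands there, was at 2.45 (adjusted p = 0.0506), and Numb, which encodes a Notch inhibitor, was at -0.97 (adjusted p = 0.0580). At the lesser curvature 2 of the 13 fell, beside 15.3% of all tested genes, namely Itch (-1.11, adjusted p = 0.0117) and Numb (-1.43, adjusted p = 0.0443).

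Of 6 genes for noncanonical ligands, 5 were tested and 1, Dlk1, rose over all tumors, beside 16.2% of all tested genes called higher. Dlk1 encodes a Delta-like protein without the DSL domain. It was 94.7, 67.5 and 113 CPM in antrum tumors, 14.4, 3.06 and 26.0 CPM in greater curvature tumors, 13.5, 33.6 and 25.7 CPM in lesser curvature tumors and 6.17, 37.0 and 39.6 CPM in corpus tumors, against 3.67, 0.698 and 2.29 CPM in normals. The antrum tumors were the highest, and greater curvature 2 was the only tumor within the normal range. The pooled log2 fold change was 3.78 (SE 0.82, edgeR adjusted p = 0.00720), and it was 5.36 in antrum tumors (adjusted p = 0.0114), 3.43 in lesser curvature tumors (adjusted p = 0.0144) and 3.62 in corpus tumors (adjusted p = 0.0452). At the greater curvature it was 2.69 and did not pass (adjusted p = 0.0623). Cntn1 (0.95, adjusted p = 0.289) and Dlk2 (0.77, adjusted p = 0.391) did not pass.

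Hes1 is known to repress proneural factor genes in several tissues. Of 7 such genes 4 were tested and 0 passed in edgeR's pooled test, beside 31.9% of all tested genes called. Only 1 (Insm1) had an unadjusted p under 0.05. The median log2 fold change of the 4 was 2.07, against -0.04 for all tested genes, and not passing does not show that they were unchanged. Insm1, an endocrine transcription factor gene, was 2.55 to 179 CPM in tumors, against 17.4, 1.66 and 10.1 CPM in normals, with 10 of 12 tumors above all normals (log2 fold change 2.80, SE 1.12, edgeR adjusted p = 0.0732). DESeq2 called it, with an adjusted p of 0.00456. The pooled log2 fold change of Neurod1 was 1.79 (SE 1.12, adjusted p = 0.220). Neuroendocrine markers summed to 256 to 5510 CPM in tumors and 301 to 1266 CPM in normals. Of these 10 markers 2 were called higher, beside 16.2% of all tested genes, and their part in these values was not tested.

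**Figure D5:**
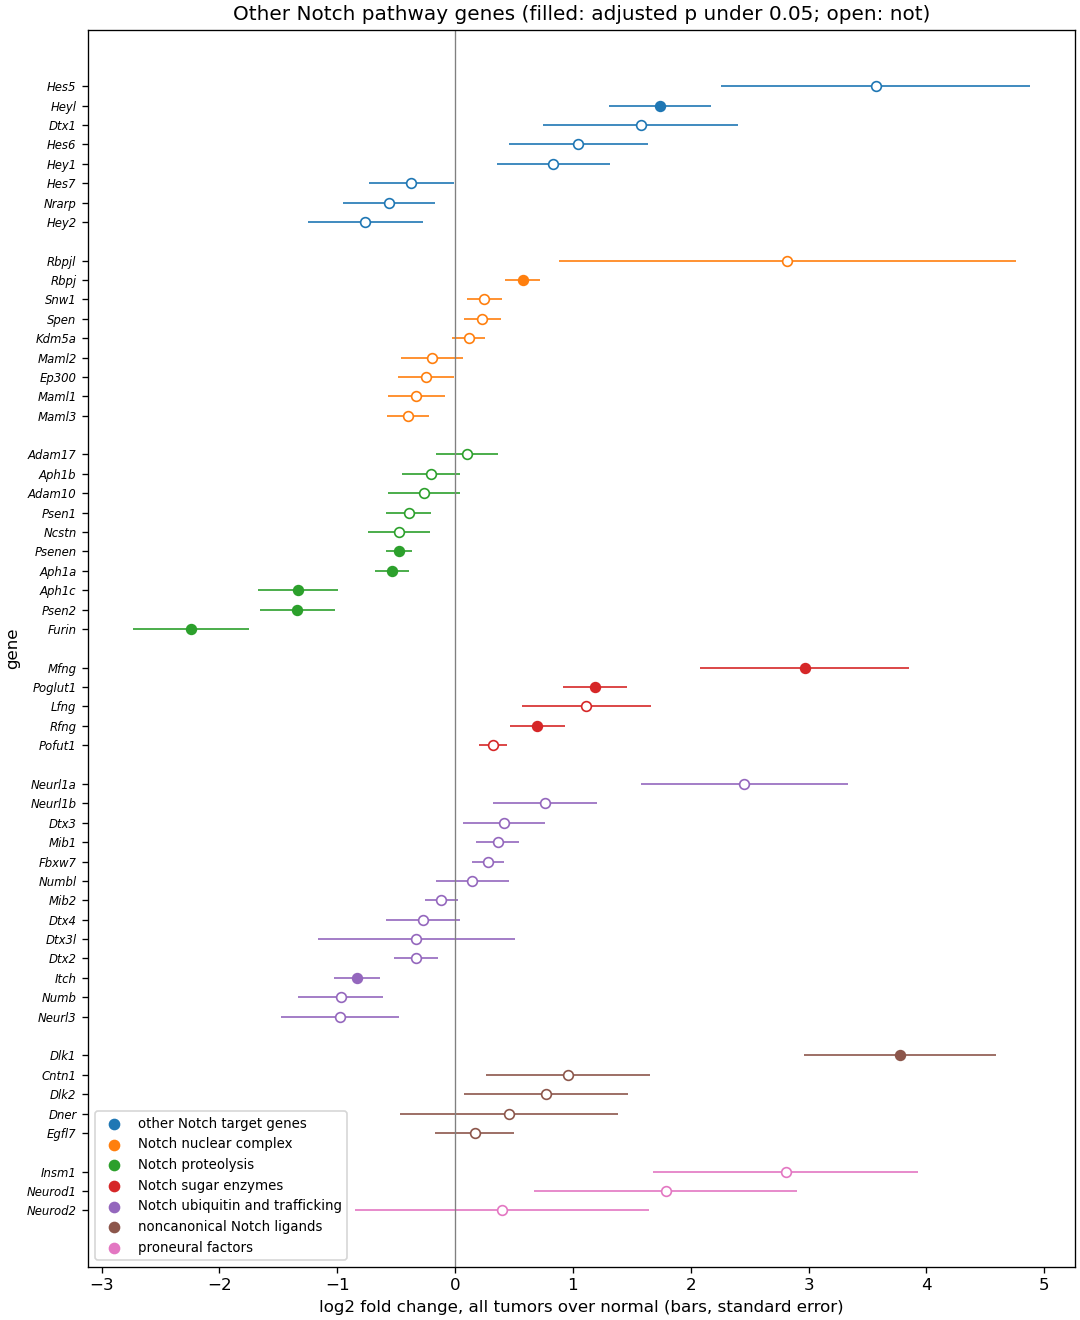
Log2 fold change of other tested Notch pathway genes (horizontal axis, all tumors over normal, bars are standard errors), colored by list. Filled points passed an adjusted p under 0.05 in edgeR, and they include Heyl (1.74), Dlk1 (3.78) and Furin (-2.24).

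In the test among the 4 tumor sites, edgeR called 0 of the 10 Notch genes and 0 of 16224 genes (0%). At an unadjusted p under 0.05 it had 947 genes, with Dll1 from the 10, and DESeq2 had 1598 genes, with Notch3, Dll1 and Dll3 from the 10. DESeq2 called 164 genes at an adjusted p under 0.05, none of them among the 10. The site comparisons share the same 3 normals, so their values for a gene are not independent.

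The genes with the most similar pattern were found by the root mean square difference in log2 CPM over the 15 libraries, after centring each gene on its own mean. Nearest to Jag2 were Fkbp3 (0.24) and Tmem198 (0.27), beside a standard deviation of 1.06 for Jag2 itself. Nearest to Hes1 were Rab29 (0.20) and Cyp4f16 (0.21), with a standard deviation of 1.06 for Hes1. Nearest to Notch4 were Lipa (0.30) and Prdm9 (0.32), with a standard deviation of 0.89. Dll3 had no gene closer than Sim1 (0.73), with a standard deviation of 1.84.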

How the data were processed

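Counts per gene were deposited by the authors as whole numbers for 36144 genes in 15 libraries. The TPM values were deposited by the authors in a table named for FPKM, but each column adds up to 1e+06, so they were read as TPM. Per the submitters' processing notes, bcl2fastq 2.19, kallisto 0.44.0, sleuth, DESeq2 and GRCm38.p6 were used, without the role or order of each. Counts from kallisto are estimates, and reads shared between related transcripts are divided by a model. The sources used here do not give how transcripts were summed or whether strand was used.

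The test was edgeR 4.0.16 on these counts, in R 4.3.3 (filterByExpr with a minimum count of 10, TMM, 1 robust quasi-likelihood model of 5 groups without a replicate block). The contrasts were the mean of the 4 tumor sites minus normal, each site minus normal, and an F test among sites, with Benjamini-Hochberg adjustment over 16224 genes. Alternatives used DESeq2 1.42.0, and limma 3.58.1 on log2(TPM + a pseudocount of 1 or 0.1), no filter, a replicate block, only the groups compared, and each library left out. An adjusted p given without a tool is edgeR's. The scripts were tested on simulated counts. Library totals of 7957165 to 21564972 counts limit low genes such as Dll3. Coordinates are from GENCODE M21 on GRCm38. The members, lists and libraries to leave out were chosen with earlier results of these data known. Named genes were all 10 members, up to 3 genes of each pathway list with the smallest pooled p, and the 2 nearest genes in pattern, chosen from tested genes that are not predicted genes or pseudogenes. Some genes chosen by this rule are not reported here.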

Additional observations from a re-analysis of the deposited data

How the results depend on the processing

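Of 50 fold changes (10 genes, 5 contrasts), none changed sign while called under up to 24 alternatives, and 37 kept their side of the threshold throughout. In 22, a sign changed at some alternative without a call in either, as for Notch1 (-0.06 to 0.32), Notch2 (-0.40 to 0.33), Notch3 (-0.24 to 1.04) and Jag1 (-0.16 to 0.78) over all tumors. The number of the 10 genes called over all tumors was 3 without greater curvature 2 and corpus 1, and 0 to 2 with 1 library left out. In antrum tumors it was 1 (Jag2) with DESeq2, with limma under each TPM setting and without those 2 libraries, and 0 to 1 with 1 left out. At the greater curvature it was 2 with DESeq2 (Dll1, Dll3), 1 with limma under each TPM setting (Dll1), 2 without those 2 libraries (Dll3, Jag2) and 0 to 2 with 1 left out. At the lesser curvature it was 4 with DESeq2 and 0 to 3 with 1 left out. In corpus tumors it was 1 without those 2 libraries (Jag2) and 0 to 0 with 1 left out, and among sites 0 to 0. The cause of these changes was not tested. With the replicate block, 1 gene was called over all tumors and 3 at the lesser curvature (Hes1 added, -1.98, adjusted p = 0.0432), and the block changed no other call of the 10. Of 30 same-numbered pairs of libraries, 17 had a correlation of deviations over 0.1. Pairing needed every pair over 0.1, so the numbers were not taken as pairs. As a hint the other way, 10 of 15 libraries correlated best with their own number, and the median correlation was 0.168 for same-numbered and -0.0654 for differently numbered pairs.

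Over all genes, 5176 were called in the pooled comparison and 2587 to 6900 with 1 library left out. Those ranges were 387 to 3297 in antrum tumors, 1 to 4173 at the greater curvature, 2159 to 6403 at the lesser curvature, 0 to 1218 in corpus tumors and 0 to 16 among sites. DESeq2 called 6690 in the pooled comparison and, by site in that order, 4482, 3851, 7348 and 2235. With limma on log2(TPM + 1) the site counts were 4047, 3153, 7228 and 499, on log2(TPM + 0.1) 4287, 3470, 7230 and 888, and unfiltered 3308, 2113, 7062 and 117. With only the groups compared they were 902, 4, 5289 and 301, without a filter on counts 1635, 964, 4483 and 331, and without those 2 libraries 3598, 4430, 6324 and 1972. On the TPM scale the median gene rose by 0.43 (pseudocount 1) or 0.52 (pseudocount 0.1) and 91.2% of pooled calls were higher, against 50.8% with counts. TPM per CPM of a gene differed between libraries by up to 3.41 times, for Dll3. Depth limits Dll3, with 1 count in corpus 1.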
